A study of Mus musculus with 7 samples.

Results

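Notch receptors, their ligands and 2 of their direct target genes are described here in mouse cortical bone. The 10 genes are Notch1, Notch2, Notch3 and Notch4, the ligands Dll1, Dll4, Jag1 and Jag2, and the targets Hey1 and Hes1. Their counts were found by gene symbol, and the list was drawn up with earlier results of these data known. All 10 were present among the 27179 genes counted, and all 10 were among the 15098 genes that were abundant enough to be tested, which means that 3 or more libraries reached 0.65 CPM, the count of a gene scaled to the size of its library. RNA-sequencing had been performed on femora of 12-week-old female mice on the C57BL/6 background, after the bone ends were cut off and the marrow was flushed. There were 3 Dmp1Cre.Efnb2f/f-labelled libraries, in which Cre recombinase under a Dmp1 promoter is directed at the floxed Efnb2 gene, the gene for the membrane protein EphrinB2, in late osteoblasts and osteocytes. The 4 control libraries were from Dmp1Cre mice, which carry the same Cre and no floxed Efnb2 allele and were littermates or cousins. Each library is a separate mouse. The labels name 4 parent crosses, of which 1 gave both a Dmp1Cre.Efnb2f/f-labelled library (replicate 3) and a control (control 3). Bone was homogenized whole, so the libraries also hold RNA of vessels, marrow and muscle remnants and osteoclasts, and in such material fewer cells of a type and less RNA per cell cannot be told apart.

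Notch receptors are single-pass membrane proteins that bind Delta-like or Jagged ligands on a neighbouring cell. Ligand binding and endocytosis expose the receptor to ADAM proteases and then to gamma-secretase, and the released intracellular domain joins RBPJ and a Mastermind-like protein in the nucleus to switch on genes such as Hes1 and Hey1, which encode transcriptional repressors. In bone the pathway is known for restraining osteoblast differentiation, for acting on osteoclast precursors and in osteocytes, and for controlling the growth and form of the vessels.

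Library totals ranged from 18119947 to 19119250 counts in the Dmp1Cre.Efnb2f/f-labelled libraries and from 17245556 to 22075778 in the controls. On the first principal component of log2 CPM, which held 53.9% of the variance, controls 1 and 4 stood apart (scores 43.9 and 68.8) and the other 5 libraries of both genotypes lay between -41.4 and -1.76, so values without controls 1 and 4 are also given. Efnb2, the targeted gene, went against its label. It had 322, 239 and 224 counts in the Dmp1Cre.Efnb2f/f-labelled libraries and 164, 139, 110 and 117 in the controls, with means of 13.6 ± 3.05 CPM (SD, n = 3) and 6.95 ± 1.02 CPM (SD, n = 4), and no control reached any of the former (exact permutation test, two-sided, p = 0.0286, which is the lowest that 3 libraries against 4 can give). Of all tested genes, 5.05% were likewise higher in every such library than in every control. In the edgeR fit described below, Efnb2 had a log2 fold change of 0.965 ± 0.214 (SE; adjusted p = 0.511) and did not pass. Of the other tools given below, DESeq2 and the limma pipeline called it (adjusted p = 0.033 and 0.016), and limma-voom did not. The counts cover all exons of the gene and all cells of the bone, not the floxed part in osteocytes alone, so they check the label only in part. The paper reports PCR of the targeted region in sorted osteocytes, in which Efnb2 was lost in this genotype and kept in other cells. Those were other, younger mice with a GFP reporter. All 5 osteocyte markers listed, which include Dmp1, Mepe and Sost, were detected and tested, with summed levels of 240 to 471 CPM in the Dmp1Cre.Efnb2f/f-labelled libraries and 146 to 580 CPM in the controls.

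To ask whether Notch genes differed in RNA level between the genotypes, all tested genes were fitted with edgeR's quasi-likelihood test and p-values were adjusted over all of them (Benjamini-Hochberg, threshold 0.05). No Notch gene passed (0 of 10), and no gene of any kind did (0 of 15098, 0.0%). This departs from the paper, which reports many genes as changed in each direction at a false discovery rate under 0.05. Its model differed from edgeR's in several ways and took account of when samples were collected, which the labels did not allow here. Which of these differences matters was not tested. Levels below are CPM scaled by TMM factors, which compare libraries, and fold changes are log2 values of the Dmp1Cre.Efnb2f/f-labelled libraries over the controls. Notch1 and Notch2 had lower means in the Dmp1Cre.Efnb2f/f-labelled libraries, while Notch3 and Notch4, all 4 ligands and both targets had higher means, with a median log2 fold change of 0.28 over the 10 genes against 0.012 over all tested genes. This median was 0.16 without replicate 1 labelled Dmp1Cre.Efnb2f/f, 0.17 without control 2 and 0.63 without controls 1 and 4. At an unadjusted p under 0.05, 1 of the 10 was lower (Notch1) and 0 were higher, beside 5.03% and 4.63% of all tested genes. In 1 gene (Hey1) every library labelled Dmp1Cre.Efnb2f/f was above every control, and in 2 (Notch1 and Notch2) every such library was below every control, beside 5.05% and 6.3% of all tested genes. With scaling by library size only, the directions of the 10 genes stayed the same, while 861 genes were higher and 544 lower at an unadjusted p under 0.05, against 699 and 760 with TMM, and the median of all genes moved to 0.094.

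**Figure D1:**
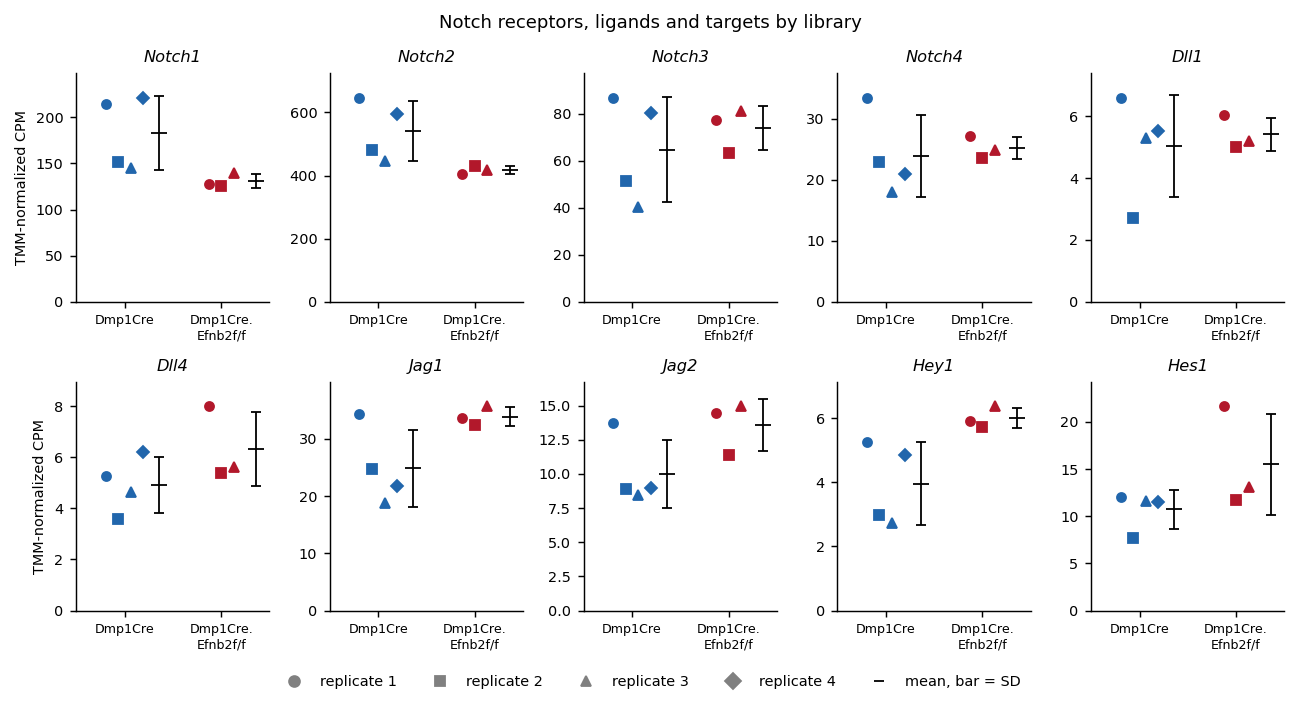
TMM-normalized CPM (vertical axes, from 0) of the 10 Notch genes in the 4 Dmp1Cre libraries (blue) and the 3 Dmp1Cre.Efnb2f/f-labelled libraries (red), with symbols for the replicate number and black bars for the mean and SD. Notch1 and Notch2 lie lower in all 3 red points than in all 4 blue ones, and Hey1 lies higher, while the groups overlap for the other 7 genes.

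Levels were first compared between genes, for which CPM was divided by the length of each gene's exons. Notch2 was the most abundant at 46.5 ± 9.04 CPM per kb (SD, n = 7 libraries), and Notch1 followed at 17.0 ± 4.22 CPM per kb. Notch2 exceeded Notch1 in 7 of 7 libraries, by 2.43 to 3.09 times (two-sided exact sign-flip permutation test, p = 0.0156, adjusted over 9 neighbouring pairs 0.0281). Hes1 (8.80 ± 2.94 CPM per kb) and Notch3 (8.66 ± 2.20 CPM per kb) came next and did not differ beyond their spread, with Hes1 higher in 3 of 7 libraries (exact p = 0.953). Jag1 at 5.23 ± 1.24, Notch4 at 3.69 ± 0.745, Jag2 at 2.85 ± 0.696 and Hey1 at 2.20 ± 0.652 CPM per kb followed, each above the next in all 7 libraries except Hey1, which was above Dll4 in 6 of 7. The Delta-like ligands were the lowest, with Dll4 at 1.60 ± 0.396 and Dll1 at 1.52 ± 0.357 CPM per kb, and these also did not differ beyond their spread (Dll4 higher in 5 of 7, exact p = 0.422). The remaining neighbours passed the exact test after adjustment (0.0281 or 0.0402), although Jag2 exceeded Hey1 by as little as 1.001 times in its closest library. Hes1 varied most between libraries, with a coefficient of variation of 33.4%, and Notch2 least, with 19.4%.

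**Figure D2:**
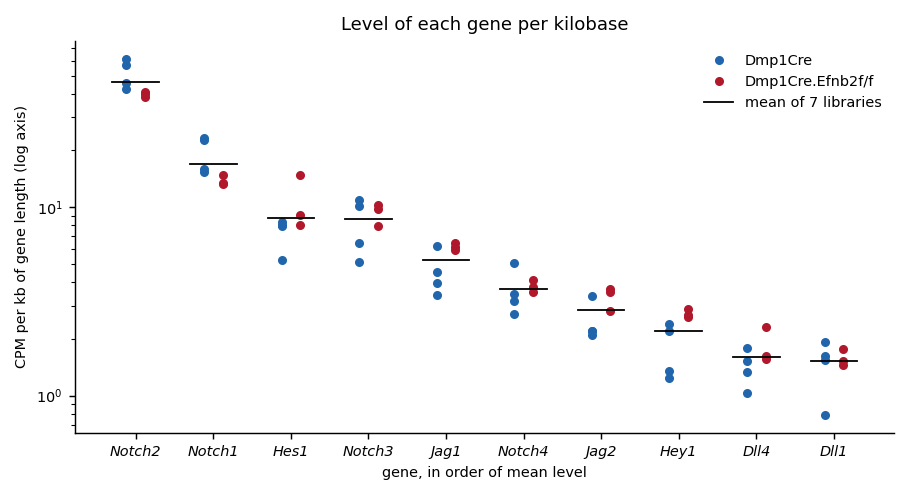
CPM per kb of gene length (log axis) of the 10 Notch genes in the order of their mean over 7 libraries (black line), with Dmp1Cre libraries in blue and those labelled Dmp1Cre.Efnb2f/f in red. Notch2 and Notch1 stand highest at means of 46.5 and 17.0, Dll4 and Dll1 lowest at 1.60 and 1.52, and Hes1 and Notch3 share nearly the same mean.

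Among receptors, Notch1 lies on chromosome 2 of GRCm38 (26457902 to 26503822) and has roles in blood lineages, endothelium and the osteoblast lineage. Replicates 1 to 3 of the Dmp1Cre.Efnb2f/f-labelled libraries had 128, 126 and 140 CPM, and controls 1 to 4 had 215, 152, 145 and 221 CPM, from 2408 to 4361 counts a library. The groups did not overlap, but control 3 lay close to replicate 3, and the high control mean came from controls 1 and 4. Its log2 fold change came to -0.48 ± 0.20 (SE; edgeR, adjusted p = 0.511; two-sided exact permutation test, p = 0.0857). Without controls 1 and 4 it was -0.18 ± 0.099 (edgeR, adjusted p = 0.396).

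Notch2, on chromosome 3 (98013538 to 98150367), is the receptor whose gain-of-function mutations cause a human disease of bone loss. It was at 405, 429 and 417 CPM in the Dmp1Cre.Efnb2f/f-labelled libraries and at 646, 479, 445 and 596 CPM in the controls. Here too the groups did not overlap and controls 1 and 4 were the highest, and the 3 Dmp1Cre.Efnb2f/f-labelled libraries were close together (SD 12.3 CPM) next to the controls (SD 95.1 CPM). The log2 fold change of -0.38 ± 0.21 (edgeR, adjusted p = 0.520; exact permutation test, p = 0.0857) became -0.15 ± 0.12 without controls 1 and 4. Over the 7 libraries Notch1 and Notch2 moved together more closely than any other pair of the 10 genes (r = 0.968 on log2 CPM).

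Because these were the genes of the 10 with lower means and had the closest joint pattern, the 250 bases before their transcription start are shown from RefSeq (GRCm38.p6), with every GGGCGG, the GC box bound by SP1-type factors, in capitals on either strand (as CCGCCC on the other). The window of Notch1 is chr2:26503823-26504072 on the minus strand and that of Notch2 is chr3:98013288-98013537 on the plus strand, and each is written in the direction of transcription.
Notch1: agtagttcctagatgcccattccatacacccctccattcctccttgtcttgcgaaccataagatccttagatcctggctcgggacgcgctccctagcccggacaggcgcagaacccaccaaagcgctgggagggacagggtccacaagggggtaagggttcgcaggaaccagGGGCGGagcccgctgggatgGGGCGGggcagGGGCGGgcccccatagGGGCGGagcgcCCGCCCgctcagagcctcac
Notch2: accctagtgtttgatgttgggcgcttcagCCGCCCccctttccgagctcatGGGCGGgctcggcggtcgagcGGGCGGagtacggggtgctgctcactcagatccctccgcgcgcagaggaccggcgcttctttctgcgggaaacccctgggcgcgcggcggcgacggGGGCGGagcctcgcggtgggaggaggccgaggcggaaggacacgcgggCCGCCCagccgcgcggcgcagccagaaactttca
Each holds 5 GC boxes, and of all 32851 RefSeq promoter windows 4.09% hold 4 or more and 32.7% hold at least 1. Such numbers were not particular to this pair, as the window of Jag2 also held 5 and that of Notch3 held 4. Of the 8 Notch genes with a window, 5 held a GC box (Notch1, Notch2, Notch3, Dll4 and Jag2), while Hey1 and Hes1 had no window in the table used. GTGGGAA, the site of RBPJ, and its core TGGGAA, which it contains, were found on neither strand in any of the 9 windows of these 8 genes taken at their full 300 bases, against 6.38% and 25.6% of all windows. These were 3 of 7 motifs looked for on both strands. In the 250 bases before the start, CCAAT was in 2 of the 8 genes (33.8% of all windows), TATAAA in 0 (12.4%), CACGTG in 0 (6.02%), and CACGNG, which overlaps CACGTG and is a type of site that HES and HEY proteins bind, in 5 (23.5%). The sequences to show were chosen after the values were seen, and a match is a stretch of letters and not a measured binding site.

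Notch3, on chromosome 17 (32120820 to 32166896), is the receptor of pericytes and vascular smooth muscle cells, the mural cells of vessels. It was at 77.5, 63.5 and 81.1 CPM in the Dmp1Cre.Efnb2f/f-labelled libraries and at 86.9, 51.2, 40.6 and 80.5 CPM in the controls. The groups overlapped, since controls 1 and 4 lay with the Dmp1Cre.Efnb2f/f-labelled libraries and controls 2 and 3 below them. With all libraries the log2 fold change was 0.19 ± 0.27 (edgeR, adjusted p = 0.755; exact permutation test, p = 0.486), and without controls 1 and 4 it was 0.69 ± 0.16 (edgeR, adjusted p = 0.134). Leaving out 1 library at a time moved it between 0.023 (without control 3) and 0.37 (without control 1).

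Notch4, which is largely restricted to endothelium, lies on the same chromosome (34564286 to 34588543) and was at 27.2, 23.5 and 24.8 CPM in the Dmp1Cre.Efnb2f/f-labelled libraries against 33.4, 23.0, 18.0 and 20.9 CPM in the controls. Control 1 was the highest library of all and control 3 the lowest, and the groups overlapped. Its log2 fold change was 0.079 ± 0.22 (edgeR, adjusted p = 0.879; exact permutation test, p = 0.657), and its sign turned without control 3 (-0.034).

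The make-up of the receptor pool was then described as each receptor's share of the summed level per kb. Notch2 made up 58.0% to 64.7% over all libraries, and the groups overlapped. Notch1 made up 20.2% to 21.6% in the Dmp1Cre.Efnb2f/f-labelled libraries and 22.4% to 25.0% in the controls. Notch3 made up 12.2% to 14.9% against 7.80% to 10.9%, and Notch4 5.43% to 6.25% against 3.39% to 5.05%. For Notch1, Notch3 and Notch4 the shares of the groups did not overlap, with controls 1 and 4 included. The levels of Notch3 and Notch4 themselves did overlap, and how often shares of other genes separate in this way was not measured. Shares in 1 library depend on each other and no test was made of them.

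All 4 ligands had higher means in the Dmp1Cre.Efnb2f/f-labelled libraries, and for all 4 the groups overlapped. Jag1, on chromosome 2 (137081451 to 137116520), is the main Jagged ligand of osteoblasts and vessel walls. It had 33.6, 32.5 and 35.6 CPM in the Dmp1Cre.Efnb2f/f-labelled libraries and 34.3, 24.8, 18.8 and 21.7 CPM in the controls. Control 1 reached the level of the Dmp1Cre.Efnb2f/f-labelled libraries and the other 3 controls were below all of these. The log2 fold change was 0.44 ± 0.22 (edgeR, adjusted p = 0.517; exact permutation test, p = 0.114), and 0.64 ± 0.14 without controls 1 and 4 (edgeR, adjusted p = 0.134).

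Jag2, on chromosome 12 (112907803 to 112929812), is the second Jagged ligand and showed the same arrangement. It was at 14.4, 11.4 and 14.9 CPM in the Dmp1Cre.Efnb2f/f-labelled libraries, while control 1 was at 13.7 CPM and controls 2 to 4 at 8.90, 8.47 and 8.94 CPM. Control 1 alone overlapped the other genotype. For Jag2 the log2 fold change was 0.44 ± 0.23 (edgeR, adjusted p = 0.517; exact permutation test, p = 0.0857), and 0.65 ± 0.17 without controls 1 and 4. Jag1 and Jag2 had an r of 0.933 over the 7 libraries, the second closest pair of the 10 genes.

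The promoters of this pair are shown beside those of the receptors above, with GC boxes again in capitals. The Jag1 window is chr2:137116521-137116770 and the Jag2 window chr12:112929496-112929745, both on the minus strand and of RefSeq GRCm38.p6. The Jag2 window lies inside the span of Jag2 given above, before an inner start, while that of Jag1 lies before its gene.
Jag1: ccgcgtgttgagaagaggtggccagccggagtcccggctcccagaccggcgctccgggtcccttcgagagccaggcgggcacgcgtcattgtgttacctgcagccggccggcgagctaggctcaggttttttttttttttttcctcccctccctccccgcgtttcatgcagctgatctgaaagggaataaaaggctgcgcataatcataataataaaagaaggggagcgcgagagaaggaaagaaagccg
Jag2: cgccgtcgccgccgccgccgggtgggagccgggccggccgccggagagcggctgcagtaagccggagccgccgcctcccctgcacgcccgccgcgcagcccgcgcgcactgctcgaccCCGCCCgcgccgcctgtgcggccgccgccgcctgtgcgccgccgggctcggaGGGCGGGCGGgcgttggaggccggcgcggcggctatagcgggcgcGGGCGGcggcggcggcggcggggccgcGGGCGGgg
Although the RNA levels of the 2 genes followed each other, their windows differed. Jag1 had 0 GC boxes and 57.2% G and C, and Jag2 had 5 GC boxes and 87.2% G and C.

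Dll4, the Delta-like ligand of arterial and sprouting endothelium, lies on chromosome 2 (119325784 to 119335666) and was at 7.98, 5.37 and 5.62 CPM in the Dmp1Cre.Efnb2f/f-labelled libraries against 5.27, 3.58, 4.62 and 6.20 CPM in the controls. Replicate 1 was the highest library, and control 4 lay above the other 2 replicates. The log2 fold change was 0.36 ± 0.26 (edgeR, adjusted p = 0.567; exact permutation test, p = 0.200), and it was 0.16 without replicate 1. Dll1, on chromosome 17 (15367354 to 15376932), is a ligand that stromal and vascular cells present to lymphoid precursors. It was at 6.03, 5.01 and 5.22 CPM in the Dmp1Cre.Efnb2f/f-labelled libraries and at 6.60, 2.71, 5.29 and 5.53 CPM in the controls, from 50 to 134 counts a library. Only control 2 stood below the other 6 libraries, and without it the sign of the log2 fold change turned from 0.10 ± 0.30 (edgeR, adjusted p = 0.880; exact permutation test, p = 0.857) to -0.10. Of the ligand pool per kb, Jag1 made up 40.7% to 52.9%, Jag2 23.1% to 27.7%, Dll4 11.7% to 18.8% and Dll1 9.27% to 18.4%, and the genotypes overlapped in all 4 shares.

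Both target genes had higher means in the Dmp1Cre.Efnb2f/f-labelled libraries. Hey1, on chromosome 3 (8663359 to 8667038), encodes a repressor with roles in vessels and in osteoblasts. It had 5.92, 5.74 and 6.37 CPM in the Dmp1Cre.Efnb2f/f-labelled libraries and 5.27, 2.98, 2.73 and 4.86 CPM in the controls, from 49 to 127 counts a library. The groups did not overlap, with controls 1 and 4 nearest to the Dmp1Cre.Efnb2f/f-labelled libraries and controls 2 and 3 lower. Hey1 had a log2 fold change of 0.60 ± 0.28 (edgeR, adjusted p = 0.511; exact permutation test, p = 0.0857), and 1.07 ± 0.18 without controls 1 and 4 (edgeR, adjusted p = 0.115). A predicted protein-coding gene overlaps Hey1 in RefSeq, and the strand setting of the counting was not stated in the sources used here.

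Hes1, on chromosome 16 (30065357 to 30067796), encodes a repressor that also answers to signals other than Notch. It was at 21.6, 11.7 and 13.1 CPM in the Dmp1Cre.Efnb2f/f-labelled libraries and at 12.1, 7.65, 11.6 and 11.5 CPM in the controls. Replicate 1 stood far above every other library, replicate 2 lay below control 1, and control 2 was the lowest. The log2 fold change of 0.53 ± 0.26 (edgeR, adjusted p = 0.517; exact permutation test, p = 0.0571) was 0.21 without replicate 1. Hes1 was thus unlike Hey1 in how its libraries were arranged, as Hey1 kept a log2 fold change of 0.61 without that library.

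Within the cross that gave both genotypes, replicate 3 and control 3 can be compared directly, with no replicate and no test. Notch3 had 81.1 against 40.6 CPM, Jag1 35.6 against 18.8, Jag2 14.9 against 8.47 and Hey1 6.37 against 2.73. Notch1 had 140 against 145 CPM and Notch2 417 against 445. Notch4 had 24.8 against 18.0 CPM, Dll4 5.62 against 4.62, Hes1 13.1 against 11.6 and Dll1 5.22 against 5.29. In this pair 9 of the 10 genes had the direction of the full comparison and Dll1 did not. Both libraries are part of the full comparison, so this likeness is partly built in. The share of all tested genes that kept their direction was not counted. With the cross as a block in edgeR, in which this pair alone carries the comparison, the log2 fold changes were 1.00 for Notch3, 0.93 for Jag1, 0.82 for Jag2, 1.22 for Hey1, 0.17 for Hes1, -0.053 for Notch1, -0.094 for Notch2 and -0.021 for Dll1 (adjusted p = 1.00 for each).

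Other tools gave other numbers of calls from the same counts. The study's own limma pipeline without its day block, since the labels give no day of collection, called 2 of the 10 genes, Jag1 (0.47, limma, adjusted p = 0.0302) and Hey1 (0.78, limma, adjusted p = 0.0162). Both were called higher, a direction in which this pipeline called 7.49% of all tested genes, and 0 of the 10 were called lower, beside 7.39%. DESeq2 called 0 of the 10 (0.477% of all genes), and limma-voom with quality weights called 0 of the 10 (0.384%). In the limma pipeline Notch3 had a log2 fold change of 0.42 (limma, adjusted p = 0.0789), and Notch2 one of -0.077 (limma, adjusted p = 0.605).

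The rest of the pathway was read from a list of 47 genes, of which 40 were tested. No gene passed edgeR's threshold (0 of 40), and the directions were divided, with 18 positive and 22 negative log2 fold changes and a median of -0.08. At an unadjusted p under 0.05 there were 3 higher (Rbpj, Maml2 and Neurl1a) and 1 lower (Psenen), beside 4.63% and 5.03% of all tested genes. The groups did not overlap in 4 higher genes (Rbpj, Maml3, Poglut1 and Fbxw7) and in 4 lower ones, which include Psenen, Numb and Maml1, beside 5.05% and 6.3% of all tested genes. The remaining 7 genes, namely the ligands Dll3, Dlk1, Dlk2 and Dner and the targets Hes2, Hes3 and Hes7, were too low to test, and of these ligands Dlk2 had the highest level per kb, at 0.150 ± 0.073 CPM per kb (SD, n = 7).

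**Figure D3:**
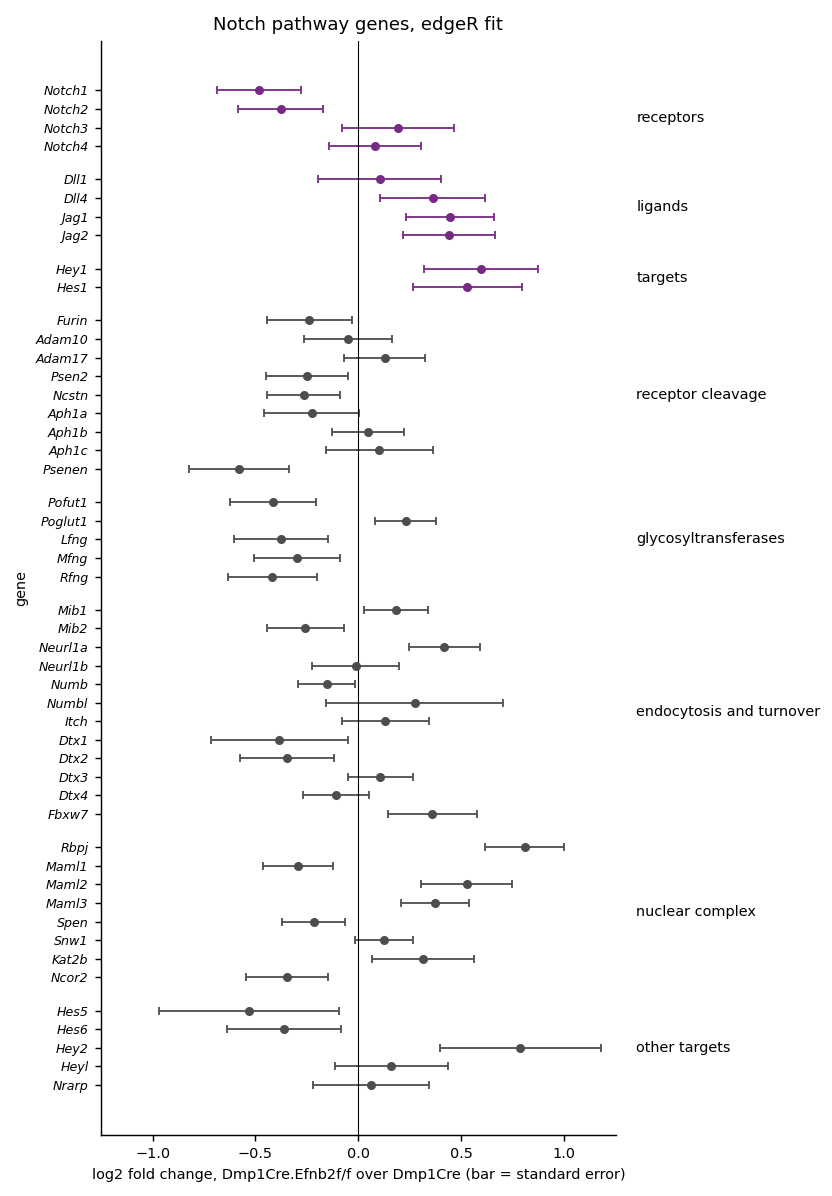
Log2 fold change of the Dmp1Cre.Efnb2f/f-labelled libraries over Dmp1Cre (horizontal axis, bar = standard error of the edgeR fit) for the 10 Notch genes (purple) and other tested pathway genes (grey), grouped by role. Rbpj has the largest positive value, 0.81, and Psenen the largest negative one, -0.58.

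Genes for cutting the receptor had mostly lower means in the Dmp1Cre.Efnb2f/f-labelled libraries (7 of 10, median -0.23, 0 called). Psenen, a subunit of gamma-secretase, was at 3.28, 3.96 and 4.06 CPM there and at 5.72, 4.56, 4.85 and 7.44 CPM in the controls, with no overlap. Its log2 fold change was -0.58 ± 0.24 (edgeR, adjusted p = 0.511), and it shares part of its span with another protein-coding gene, U2af1l4. The gamma-secretase genes Psen2, Ncstn and Aph1a had values from -0.27 to -0.23, and Aph1b and Aph1c 0.047 and 0.10. Adam10, the protease of the first cut after ligand binding, was the most abundant of this group at 33.8 ± 6.04 CPM per kb. It had a log2 fold change of -0.051 ± 0.21.

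Of the 5 glycosyltransferases, which modify the extracellular repeats of Notch, 4 had negative values (median -0.38, 0 called). Pofut1, which adds O-fucose, was at 53.8, 53.0 and 70.6 CPM in the Dmp1Cre.Efnb2f/f-labelled libraries and at 77.6, 67.8, 65.6 and 104 CPM in the controls (log2 fold change -0.41 ± 0.21; edgeR, adjusted p = 0.517). The Fringe genes Lfng, Mfng and Rfng, which extend that fucose, had values of -0.38, -0.30 and -0.42. As with Notch1 and Notch2, controls 1 and 4 were the highest libraries for Pofut1, Lfng, Mfng and Rfng. The group on endocytosis and turnover was divided, with 6 of 12 positive (median 0.046, 0 called). In it, Neurl1a, an E3 ubiquitin ligase that acts on ligands, was at 35.1, 45.1 and 43.0 CPM against 29.1, 25.9, 31.6 and 36.2 CPM in the controls (log2 fold change 0.42 ± 0.17; edgeR, adjusted p = 0.511), so that replicate 1 overlapped control 4. Mib1, the ligand ubiquitin ligase of highest level here at 25.0 ± 2.83 CPM per kb, had 0.18 ± 0.16.

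Rbpj, the DNA-binding partner of every Notch receptor, had the largest log2 fold change of the 50 Notch genes in the edgeR fit of all libraries. Hey1 had a larger one than Rbpj without control 1 (0.77 against 0.68), without controls 1 and 4, with the cross as a block, in the limma pipeline and in limma-voom. It lies on chromosome 5 (53555779 to 53657445), and no other RefSeq gene overlaps it. It was at 33.4, 31.4 and 27.4 CPM in the Dmp1Cre.Efnb2f/f-labelled libraries and at 12.8, 19.8, 18.5 and 19.2 CPM in the controls, so every library of the former was above every control and control 1 was the lowest. The log2 fold change was 0.81 ± 0.19 (edgeR, unadjusted p = 0.00246, adjusted p = 0.511; exact permutation test, p = 0.0286). Unlike for Notch1, leaving out controls 1 and 4 kept most of it (0.69 ± 0.13; edgeR, adjusted p = 0.119), and with the cross as a block it was 0.57. The limma pipeline and limma-voom called it (adjusted p = 0.0101 and 0.0459), and DESeq2 did not (adjusted p = 0.0600).

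Since Rbpj had the largest value in that fit, the promoter window that RefSeq (GRCm38.p6) lists first for it is shown. It is chr5:53590096-53590345 on the plus strand and lies inside the span of the gene given above, before an inner start. The core TGGGAA of the site that RBPJ itself binds is in capitals on either strand (TTCCCA on the other).
Rbpj: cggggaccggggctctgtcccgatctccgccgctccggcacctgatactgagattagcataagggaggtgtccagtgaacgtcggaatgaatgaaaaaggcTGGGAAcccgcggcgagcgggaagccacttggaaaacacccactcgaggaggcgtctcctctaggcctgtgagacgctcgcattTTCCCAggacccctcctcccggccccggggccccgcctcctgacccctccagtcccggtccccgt
This window holds 2 such cores. A second, partly overlapping window of Rbpj holds 1, which is the same stretch as the later of those 2. At least 1 core was in 21.6% of all promoter windows over 250 bases, and in 25.6% over their full 300 bases. The longer GTGGGAA was in neither window of Rbpj.

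The Mastermind-like coactivators, which bind the complex of Notch and RBPJ, went in different directions. Maml2 was at 28.5, 27.4 and 19.3 CPM against 17.2, 20.6, 19.2 and 12.7 CPM in the controls (log2 fold change 0.53 ± 0.22), and Maml3 at 35.6, 31.8 and 27.3 CPM against 26.0, 26.9, 23.5 and 21.1 CPM (0.37 ± 0.17). Maml1 was at 50.1, 47.8 and 50.2 CPM against 70.1, 53.3, 50.3 and 68.2 CPM (-0.29 ± 0.17). For Maml3 and Maml1 the groups did not overlap, though Maml3 and Maml1 each had neighbouring libraries of the 2 genotypes within 1 CPM, and none of the 3 passed the threshold (edgeR, adjusted p = 0.511 to 0.527). Snw1, a component of the same complex and its most abundant gene at 36.9 ± 2.85 CPM per kb, had a log2 fold change of 0.13 ± 0.14.

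**Figure D4:**
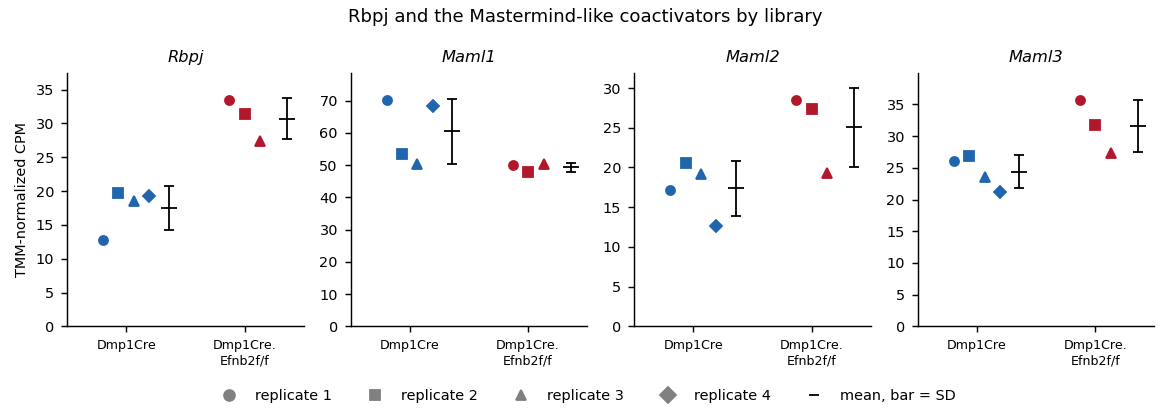
TMM-normalized CPM (vertical axes, from 0) of Rbpj and 3 Mastermind-like genes in Dmp1Cre libraries (blue) and Dmp1Cre.Efnb2f/f-labelled libraries (red), with the mean and SD in black. Rbpj lies between 27.4 and 33.4 CPM in all 3 red points and at or below 19.8 CPM in the blue ones, while Maml1 lies lower in red and Maml3 higher.

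Further Notch targets gave little. Hey2, a relative of Hey1, was near the lower limit at 1.00, 0.626 and 1.30 CPM against 0.739, 0.597, 0.613 and 0.310 CPM in the controls (log2 fold change 0.79 ± 0.39; edgeR, adjusted p = 0.517), and the groups overlapped. Hes6, the most abundant of these at 18.6 ± 5.90 CPM per kb, had -0.36 ± 0.28. Heyl and Nrarp had 0.16 ± 0.27 and 0.061 ± 0.28, and Hes5 -0.53 ± 0.44. Of the other pathway genes the limma pipeline called 4, namely Rbpj, Neurl1a (0.61) and Numbl (0.73) as higher and Rfng (-0.54) as lower, beside 7.49% of all tested genes called higher and 7.39% called lower. Numbl and Rfng are named after their values were seen.

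Markers of the cells that carry these receptors and ligands were set beside them. Of 10 endothelial markers, 3 were higher at an unadjusted p under 0.05 (Tek 0.54 ± 0.15, Flt1 0.59 ± 0.16 and Emcn 0.44 ± 0.18) and 0 lower, beside 4.63% and 5.03% of all tested genes, 7 were positive, and their summed level was 637 to 747 CPM in the Dmp1Cre.Efnb2f/f-labelled libraries and 498 to 709 CPM in the controls. Of 8 mural markers, 2 were higher at that level (Rgs5 0.90 ± 0.37 and Myh11 0.92 ± 0.34) and 0 lower, and 7 were positive. Their sums were 453 to 553 CPM against 306 to 533 CPM, with control 1 at the top of the controls. Control 1 was also the highest control for the osteoblast, osteocyte and osteoclast sums. The same held for all Notch genes of the 10 except Notch1 and Dll4. No marker of either list was at 0 in any group, and none passed edgeR's threshold. The limma pipeline that called Jag1 and Hey1 also called 5 of the 10 endothelial and 6 of the 8 mural markers higher, beside 7.49% of all tested genes. Such calls were not particular to vessel markers. The same pipeline called 7 of 8 skeletal muscle, 4 of 4 adipocyte and 3 of 8 B lineage markers higher. It called 2 of 8 erythroid markers and 1 of 8 granulocyte markers lower, and no osteoblast, osteocyte, osteoclast, T lineage or megakaryocyte marker. The part of endothelial and mural cells in the levels of the ligands, Notch3 and the targets was not tested.

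Markers of blood and muscle were set beside the receptors in the same way. The 8 erythroid markers that were found all had negative values (6 at an unadjusted p under 0.05, beside 5.03% of all tested genes that were lower at that level), and sums of 8579 to 16760 CPM against 19020 to 53810 CPM, with control 4 the highest. All 8 granulocyte markers were negative (2 at that level), with sums of 11970 to 14990 CPM against 17100 to 20070 CPM. Both sums were thus lower in every Dmp1Cre.Efnb2f/f-labelled library than in any control. Among the controls, Notch1 and Notch2 were highest in controls 1 and 4. In controls 1 to 4 the erythroid sums were 24360, 19020, 21550 and 53810 CPM. The granulocyte sums were 18220, 19060, 17100 and 20070 CPM, so that control 1 lay below control 2. All 8 skeletal muscle markers were positive (4 at that level, beside 4.63% of all tested genes that were higher), with sums of 24810 to 37960 CPM against 11590 to 26440 CPM. Osteoblast markers summed to 13960 to 23360 CPM against 13570 to 68050 CPM, with controls 1 and 4 the highest. Most of these sums came from Col1a1 and Col1a2. Among the controls, Bglap, Bglap2, Sp7 and Alpl were also highest in controls 1 and 4, while Ibsp and Runx2 were highest in controls 1 and 2. The 8 B lineage markers summed to 315 to 356 CPM against 231 to 345 CPM. No marker in these lists was at 0 in every library, and their part in the levels of the Notch genes was not tested.

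**Figure D5:**
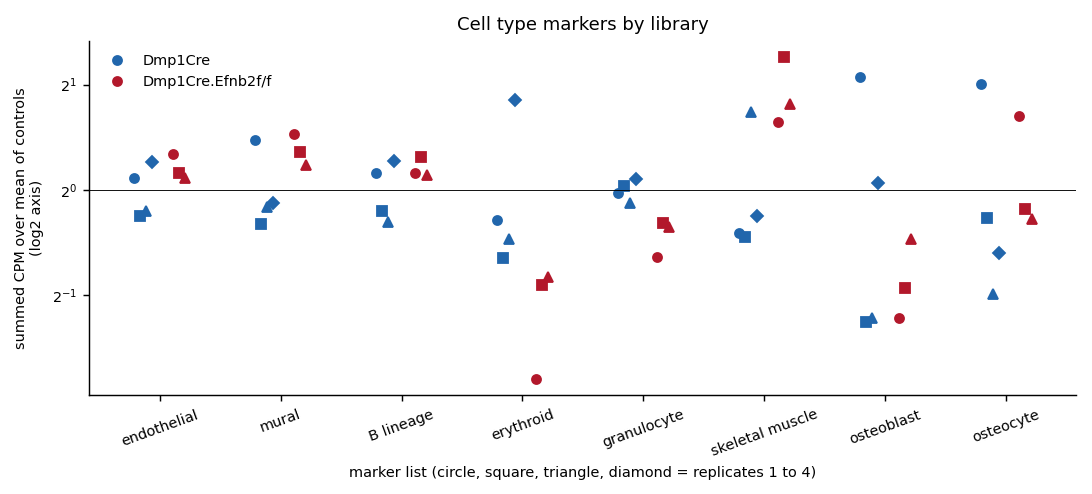
Summed CPM of each marker list relative to the mean of the 4 controls (log2 axis), for Dmp1Cre libraries (blue) and Dmp1Cre.Efnb2f/f-labelled libraries (red). Erythroid and granulocyte sums lie lower in all 3 red points than in all blue ones, and endothelial and mural sums overlap between the genotypes.

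Finally, the tested genes whose log2 CPM followed each Notch gene most closely over the 7 libraries were listed. They were picked as the highest of 15098 from 7 points that share depth and cell make-up, so the values are descriptions. Notch1 was followed by Pcnx3 (r = 0.997), H13 and Fam207a, and Notch2 by Rab29 (r = 0.992), Ghdc and Scnn1a. Notch3 was followed by Micall1 (r = 0.987), Arhgef17 and Akr1b8, and Notch4 by Tbx2 (r = 0.997), Kcna6 and Sema5a. For the ligands these were Nectin3 (r = 0.989), Sgce and Tmtc2 with Jag1, and Nes (r = 0.984), Dab2 and Grip2 with Jag2. Dll4 was followed by Ets2 (r = 0.981), the endothelial gene Egfl7 (r = 0.973) and Mcrip2, and Dll1 by Cux2 (r = 0.971), Nrxn2 and Eid2. The targets were followed by Gas8 (r = 0.978), Dock6 and Akap12 for Hey1, and by Bcas1 (r = 0.976), Eci1 and Kyat3 for Hes1. None of these genes was 1 of the 10, and several of these values rested on few libraries. Without the 2 libraries farthest from the median, r was 0.270 for Hes1 with Eci1, 0.527 for Dll1 with Cux2, 0.559 for Hey1 with Dock6 and 0.631 for Hes1 with Bcas1. Between the 10 genes themselves, Dll4 and Hes1 had an r of 0.924 and Notch3 and Hey1 one of 0.876, and the lowest was that of Notch2 and Hes1 (r = -0.341).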

How the data were processed

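RNA from 7 flushed femora was sequenced as 100-bp paired-end reads. The authors mapped these to mm10 with Rsubread, and the deposited values are raw counts per Entrez gene from featureCounts with its built-in annotation, without normalization, next to a gene length. Submitters' processing notes name bcl2fastq 2.17.1.14. Strand setting and other versions were not given in the sources used here. Single-library files and the series table hold the same counts.

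A gene was kept if 3 or more libraries reached 0.65 CPM (16302 genes). Of these, 1204 immunoglobulin segments, predicted genes, pseudogenes, rRNA, Y-linked or Xist genes and genes without a symbol were left out. The study's filter was followed only in part, since the paper names ribosomal genes and obsolete gene identifiers among those removed. RefSeq GRCm38.p6 gave positions, gene types and promoters (25271 of 27179 genes matched). The 15098 remaining genes were tested with edgeR 4.0.16 (TMM, robust quasi-likelihood; R 4.3.3), with standard errors from the fold change and the root of its F. For single values a two-sided exact permutation test was run over 35 assignments on log2(CPM + 0.5). P-values measure the spread between these mice. Scripts were tested on simulated data.

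Alternatives were DESeq2 1.42.0, limma 3.58.1 pipelines (prior count 2), other scalings, filters and gene classes, blocks for replicate number and parent cross, and leaving out each library. Leaving out controls 1 and 4 was chosen after seeing the data. The study's block for collection day could not be fitted, since the labels give no day. The paper states that samples were collected on more than 1 day, with both genotypes on each. Differences between days may therefore remain in every comparison here. All 10 Notch genes are named. Of other pathway genes, those with the lowest p or the highest level per kb in each role are named, and others only beside a count or group. A gene of the pathway list is not reported here by name. Members, gene lists and tests were chosen with earlier results of these data known.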

Additional observations from a re-analysis of the deposited data

Results flagged for a closer look

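Among the 4 controls, the lowest and highest library of 22 named genes were set against the others, and 2 genes had a library far from the rest. By chance about 1 group in 20 would be picked out in this way. Jag2 in control 1 was at 13.7 CPM, while the other 3 controls lay between 8.47 and 8.94 CPM, so the gap to the next library was 0.909 of the whole range and exceeded Dixon's critical value for 4 samples. Hes1 in control 2 was at 7.65 CPM, below the other 3 controls at 11.5 to 12.1 CPM, with a gap of 0.877 of the range.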

How the results depend on the processing

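The number of genes past the threshold was 0 in edgeR, 72 in DESeq2, 58 in limma-voom and 2246 in the limma pipeline, and 0 to 2 when 1 library was left out. The replicate block gave 1 gene, and same-numbered libraries did not deviate together (correlations -0.145, 0.063 and -0.419), so the numbers pair nothing. Leaving out controls 1 and 4 gave 2 genes and a median log2 fold change of the 10 Notch genes of 0.63 in place of 0.28. Notch genes past the threshold were 2 in the limma pipeline and 0 in every other alternative run, and for the other pathway genes 4 in the limma pipeline and 1 in limma-voom. The sign of Dll1 turned with the parent cross block (-0.021), and its range over single libraries left out was -0.10 to 0.26. For Notch4 that range was -0.034 to 0.29. The other 8 Notch genes kept their sign in all 18 alternatives, with log2 fold changes from -0.58 to -0.053 for Notch1, 0.46 to 1.22 for Hey1 and 0.33 to 0.93 for Jag1. Unadjusted p under 0.05 was met by 1459 genes, by 433 without replicate 1 labelled Dmp1Cre.Efnb2f/f, 594 without replicate 2, 2393 without control 3, 958 without control 4, 577 with the replicate block and 308 with the cross block. The cause of these moves was not tested. The order of the 10 genes held unscaled, and 8 of 10 places held without replicate 1 labelled Dmp1Cre.Efnb2f/f or without control 3. The shorter RBPJ core also gave 0 promoters. Dll1, Hey1 and Dll4 rest on 49 to 151 counts a library.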
